A study of Homo sapiens with 6 samples.

Results

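Homologous recombination, Fanconi anaemia and mismatch repair genes, together with the checkpoint genes that act with them, were examined as 1 set of 36 genes in HCT116 cells. The set was given as a list of symbols, and all 36 were found among the 26255 gene symbols of the expression tables. All 36 also had a mean of at least 1 FPKM (fragments per kilobase of transcript, scaled to the mapped reads of the library) over the libraries, as did 12203 symbols in all, which were the genes tested. HCT116 is a human colorectal carcinoma cell line that is deficient in mismatch repair. Poly(A) RNA was sequenced from parent HCT116 cells and from HCT116 cells given 1 of 2 small interfering RNAs (siRNAs) against the long noncoding RNA LINC01534, named siLINC01534-1 and siLINC01534-2. Each of the 3 groups held 2 libraries. The labels do not describe the parent cells as transfected, so transfection with an siRNA and the loss of its target cannot be told apart in a comparison with them. No library is labelled as given a negative-control siRNA. The labels give no time after transfection, and nothing in them says that the 2 libraries of a group came from separate cultures. The study's methods speak of triplicate cultures, which does not match the labelled libraries. The p-values therefore measure the spread between these libraries, which may be technical.

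Homologous recombination copies the sister chromatid to mend a double-strand break: the ends are resected, BRCA1 and BRCA2 complexes load a recombinase on the single strand, and the strand invades its homologue. The Fanconi pathway unhooks interstrand crosslinks at stalled forks, with a core ubiquitin ligase that modifies the FANCD2 and FANCI pair, and hands the resulting break to recombination. Mismatch repair recognises and removes replication errors. Many of these genes are transcribed mostly in S and G2 phase, when a sister chromatid is at hand.

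LINC01534 itself stood at 0.285 and 0.571 FPKM in the parent libraries, at 0 and 0.283 FPKM in the libraries labelled siLINC01534-1, and at 0.660 and 0.551 FPKM in those labelled siLINC01534-2. It was below the mean of 1 FPKM needed for testing, and the siLINC01534-2 libraries were not below both parent libraries. Values this near the floor rest on very few reads and cannot show whether either siRNA lowered its target. By qRT-PCR the study reported that both siRNAs reduced LINC01534 in HCT116 cells, relative to a negative-control siRNA. The libraries held an estimated 8690709 to 10418359 reads each, and the lowest library value of any of the 36 genes rested on about 43.7 reads. Between 16513 and 16903 symbols were above 0, replicates correlated across genes at a Pearson's r of 0.948 to 0.953, and 1 symbol, MIR6723, took 47.1% to 54.7% of the summed FPKM. Epithelial markers were present (EPCAM 199 to 204 FPKM, KRT8 1343 to 1730, KRT18 852 to 998, CDH1 23.5 to 36.9, CDX2 6.89 to 9.89), while markers of differentiated colon were low (KRT20 0.211 to 1.12 FPKM, LGALS4 at most 0.369, VIL1 at most 0.0453). PTPRC, PECAM1 and ALB stayed at or below 0.193 FPKM, DCN was listed at 0 in every library, and COL1A1 stood at 3.02 to 5.79 FPKM.

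In parent cells the 36 genes ranged from 1.64 FPKM for FANCF, an adaptor of the Fanconi core complex, to 68.1 FPKM for RAD51C, a paralog of the recombinase. Their median was 12.2 FPKM, against 12.1 FPKM for all tested genes, so the set sat at the middle of the expressed genes on this length-corrected scale.

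More repair genes fell than rose under both siRNAs, by modest amounts. Taking the mean of the 2 siRNAs against parent cells on the log2(FPKM + 1) scale, 16 of 36 genes fell and 1 rose at an adjusted p under 0.05 (limma). That is 44.4% and 2.78% of the set, where 20.1% of all tested genes fell and 17.1% rose. The median log2 fold change was -0.20 for the set and -0.01 for all tested genes. Without parent replicate 1 the number that fell was 9 (25.0%, against 11.1% of all tested genes), and without parent replicate 2 it was 8 (22.2%, against 9.67%). With the 4 siRNA libraries fitted as 1 group, which counts the distance between the 2 siRNAs as error, limma called 0 of the 36 members either way, where it called 0.819% of all tested genes lower and 2.14% higher. At an unadjusted p under 0.05 in that fit, 9 members were lower and 0 higher, against 10.1% and 11.8% of all tested genes, and the smallest adjusted p of a member was 0.0843.

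The libraries themselves showed the same tilt. In 15 of 36 genes (41.7%) all 4 siRNA libraries lay below both parent libraries, against 19.3% of all tested genes. In 1 of 36 (2.78%), MRE11A, all 4 lay above both, against 19% of all tested genes.

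**Figure D1:**
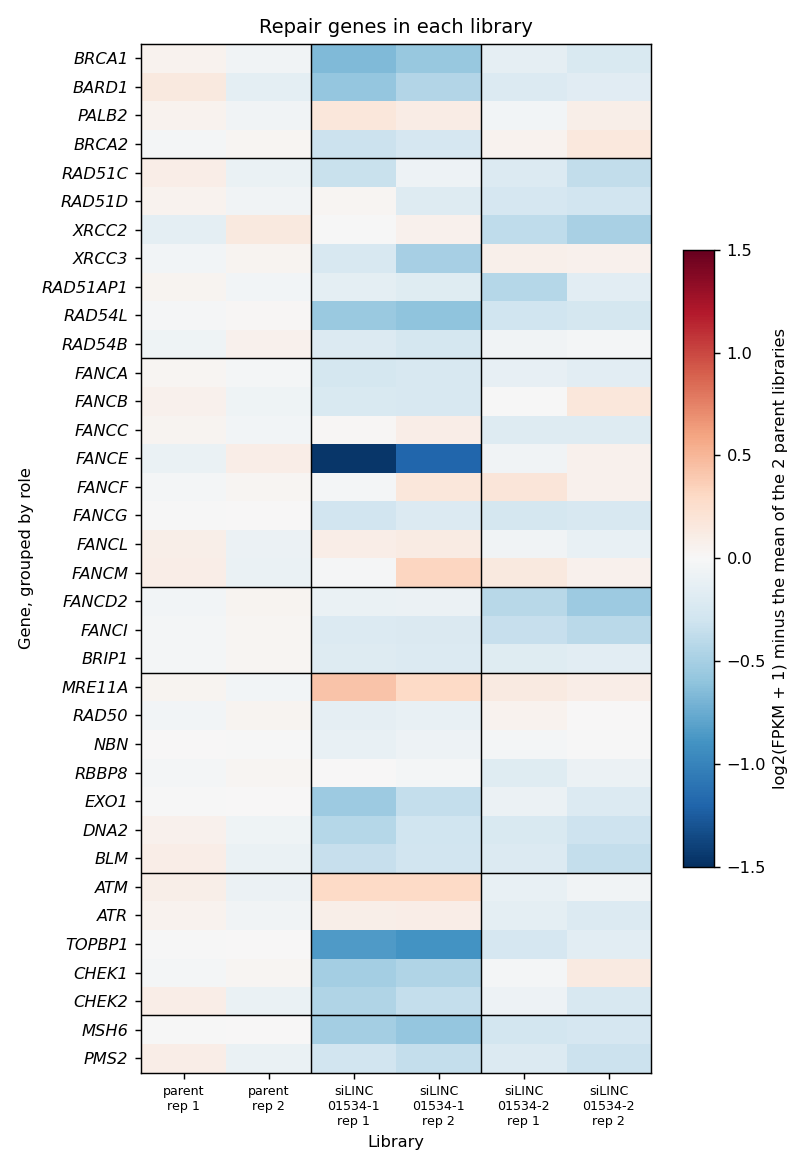
Heat map of the 36 repair genes (rows, grouped by role with black lines) in the 6 libraries (columns). Colour gives log2(FPKM + 1) minus the mean of the 2 parent libraries, blue for lower and red for higher. The darkest cells are FANCE and TOPBP1 in the siLINC01534-1 libraries, and FANCD2 and XRCC2 are the darkest rows in the siLINC01534-2 libraries.

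The siRNAs were also compared with parent cells one at a time, and both comparisons use the same 2 parent libraries. With siLINC01534-1, 18 of 36 genes fell (50.0%, against 24.5% of all tested genes) and 2 rose (5.56%, against 21.8%), with a median log2 fold change of -0.22 where that of all tested genes was 0.00. The number that fell was 11 without parent replicate 1 (30.6%, against 18.1% of all tested genes), 11 without siLINC01534-1 replicate 1 (30.6%, against 18.0%) and 10 without its replicate 2 (27.8%, against 17.9%). With siLINC01534-2, at an adjusted p under 0.05 (limma), 7 of 36 fell (19.4%, against 11.8%) and 0 rose (against 11.1%). At an unadjusted p under 0.05, a looser threshold, 19 of the 36 members were lower and 0 higher. Of all tested genes 19.3% were lower and 18.7% higher at that threshold. The median was -0.16 where that of all tested genes was 0.00. In place of 7, the count was 3 without parent replicate 1 (8.33%, against 3.52% of all tested genes) and 3 without siLINC01534-2 replicate 2 (8.33%, against 3.55%). It was 1 without parent replicate 2 (2.78%, against 3.03%) and 2 without siLINC01534-2 replicate 1 (5.56%, against 4.99%), so that in those fits the share of members that fell was near that of all tested genes. With siLINC01534-1 the calls of BRCA1, RAD54L, FANCA, FANCE, EXO1, TOPBP1, CHEK1 and MSH6 stood with any 1 library left out. With siLINC01534-2 that of FANCI did. The share of all tested genes whose calls stood in this way was not computed.

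The direct comparison of the siRNAs, which uses the parent libraries only for the shared spread, put 10 of 36 genes lower with siLINC01534-1 than with siLINC01534-2 (27.8%, against 22.3% of all tested genes) and 7 higher (19.4%, against 19.5%). These shares are near those of all genes, so the set as a whole did not stand out in this comparison, with a median difference of -0.06. The number lower was 6 without siLINC01534-2 replicate 2 (16.7%, against 16.4%). The number higher was 1 (2.78%) when either siLINC01534-1 library or either siLINC01534-2 library was left out, against 10.8% to 13% of all tested genes. Single members differed widely, from -1.33 for FANCE to 0.47 for XRCC2.

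**Figure D2:**
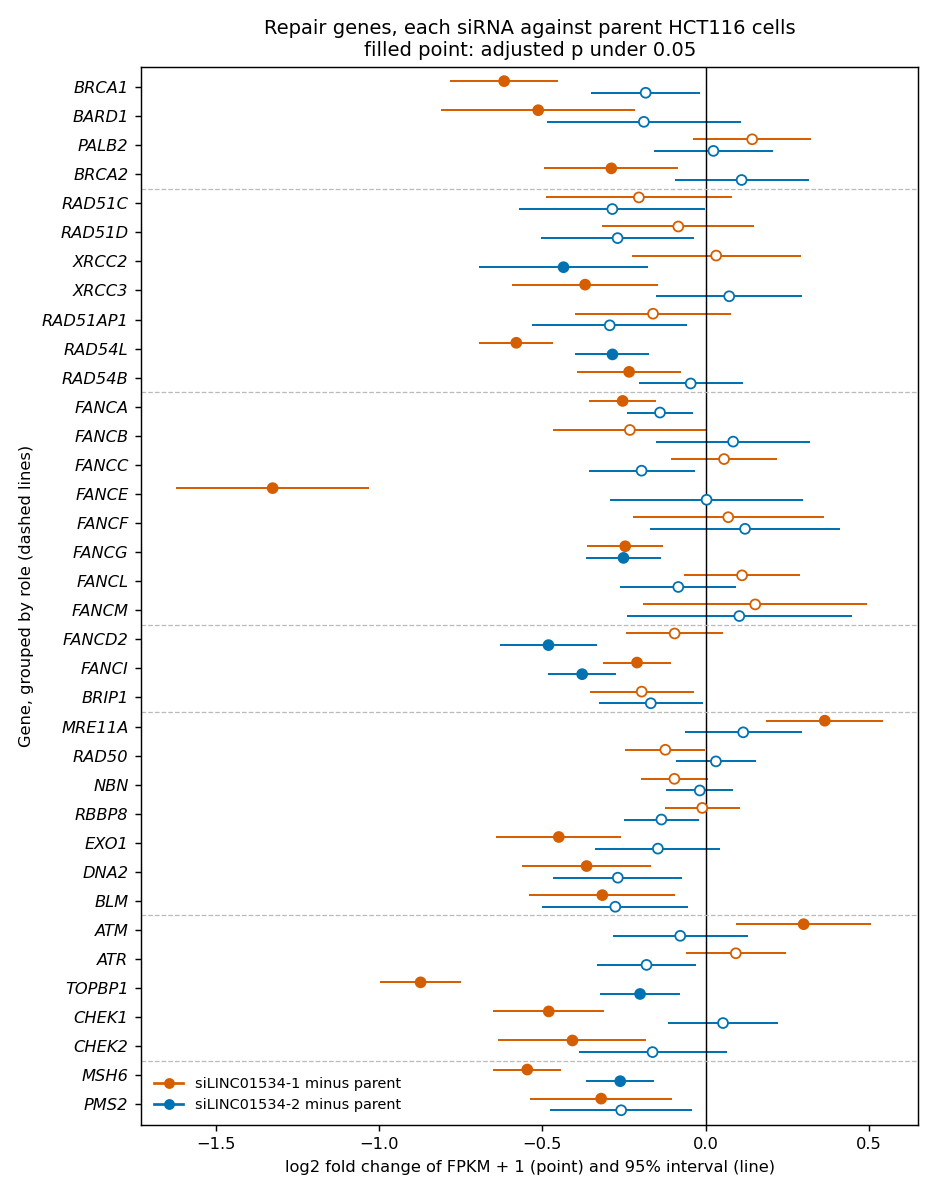
Log2 fold change of each of the 36 genes against parent cells with its 95% confidence interval, siLINC01534-1 and siLINC01534-2 side by side. Filled points have an adjusted p under 0.05 (limma). FANCE, TOPBP1 and BRCA1 lie farthest to the lower side with siLINC01534-1, at -1.33, -0.87 and -0.62.

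Promoters of the set were read for the words bound by cell cycle factors, since many of these genes are transcribed in S phase. RefSeq promoters (GRCh38.p14, 300 bases across the start site) were at hand for 32 of the 36 genes. The first listed was read where a gene had several, as BRCA1 and MSH6 did. It need not be the main promoter, and words in the other listed promoters were not counted. An E2F word (TTTCCCGC, TTTCGCGC, TTTGCCGC or TTTGGCGC, either strand) was present in 8 of 32 (25.0%): EXO1, FANCA, FANCC, FANCD2, MSH6, PMS2, TOPBP1 and XRCC2. It was present in 488 of 8728 promoters of tested genes (5.59%). The CHR word (TTTGAA or TTCGAA, either strand) was in 3 of 32 (9.38%, against 10.6%) and the CCAAT box (CCAAT, either strand) in 15 of 32 (46.9%, against 36.6%). These are matches of letters, not binding sites. Of the genes with an E2F word, EXO1, FANCA, MSH6, PMS2 and TOPBP1 fell with siLINC01534-1, while FANCC, FANCD2 and XRCC2 passed no test with it. BARD1, BLM, BRCA1, BRCA2, CHEK1, CHEK2, FANCE, FANCG, RAD54L and XRCC3 have no E2F word in the promoter read and also fell with it. The part of the E2F word in these values was not tested. Of the 8 genes with an E2F word, TOPBP1 and MSH6 fell most with siLINC01534-1 and FANCD2 fell most with siLINC01534-2, and their promoters are shown with the E2F words and CCAAT boxes in capitals.
MSH6 promoter, chr2:47782895-47783194, plus strand: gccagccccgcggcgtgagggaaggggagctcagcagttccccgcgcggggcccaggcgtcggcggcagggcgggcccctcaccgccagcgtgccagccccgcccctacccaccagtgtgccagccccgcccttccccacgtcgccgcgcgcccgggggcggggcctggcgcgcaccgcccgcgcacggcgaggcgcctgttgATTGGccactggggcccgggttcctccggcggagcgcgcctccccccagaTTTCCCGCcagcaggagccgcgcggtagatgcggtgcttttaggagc
TOPBP1 promoter, chr3:133661892-133662191, minus strand: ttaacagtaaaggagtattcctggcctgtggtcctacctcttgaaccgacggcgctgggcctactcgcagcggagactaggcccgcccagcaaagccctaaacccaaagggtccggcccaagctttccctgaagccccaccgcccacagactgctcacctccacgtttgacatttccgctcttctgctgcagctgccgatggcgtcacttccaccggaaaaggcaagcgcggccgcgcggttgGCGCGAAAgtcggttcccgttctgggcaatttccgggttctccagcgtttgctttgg
FANCD2 promoter, chr3:10026187-10026486, plus strand: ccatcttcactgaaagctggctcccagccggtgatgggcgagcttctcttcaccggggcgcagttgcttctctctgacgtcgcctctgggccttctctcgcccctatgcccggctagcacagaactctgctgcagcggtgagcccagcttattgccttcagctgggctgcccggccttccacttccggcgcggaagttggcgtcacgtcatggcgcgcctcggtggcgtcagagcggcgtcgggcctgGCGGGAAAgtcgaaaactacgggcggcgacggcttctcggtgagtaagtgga
In each case 1 E2F word is present, near the start site, as TTTCCCGC in MSH6 and on the opposite strand in TOPBP1 and FANCD2.

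The 3′ UTRs were read for the 7-mer that pairs with positions 2 to 8 of each siRNA's antisense strand, the seed, because siRNAs can lower transcripts with such a match. For siLINC01534-1 the 7-mer is GAATAAA, which contains the polyadenylation signal AATAAA. It was present in the 3′ UTR of 14 of 36 members (38.9%) and of 2788 of 10543 tested genes with an annotated 3′ UTR (26.4%). The 14 members with it had a median log2 fold change of -0.30 with siLINC01534-1 and -0.18 with siLINC01534-2, and the 22 without it -0.18 and -0.15. Over all tested genes the medians were -0.14 and 0.01 with the 7-mer and 0.03 and 0.00 without it. Genes with it had longer 3′ UTRs, with a median of 2509 against 1033 bases. For siLINC01534-2 the 7-mer TTCGAGT was present in 0 of 36 members and in 198 tested genes (1.88%).

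Of the 5 members with the largest differences between the siRNAs, FANCE, TOPBP1 and CHEK1 carry the siLINC01534-1 7-mer and XRCC2 and XRCC3 do not. RAD54L carries it too. The first match in each is shown with 10 bases on either side, the 7-mer in capitals, from the GENCODE transcripts on GRCh37 (hg19), the build of the expression files.
FANCE site, 3′ UTR, chr6:35434849-35434875, plus strand: caatggtgttGAATAAAagcaagttca
TOPBP1 site, 3′ UTR, chr3:133319498-133319524, minus strand: tgacaataaaGAATAAAagtagtaact
CHEK1 site, 3′ UTR, chr11:125525960-125525986, plus strand: aggtgataaaGAATAAAagagggaagg
RAD54L site, 3′ UTR, chr1:46744115-46744141, plus strand: ttaaaaaaaaGAATAAAggtatgaaag
FANCE and RAD54L have the match 14 bases before the annotated end of the transcript, the place of the polyadenylation signal, as have 7 of the 14 members within 14 to 17 bases. In FANCE, TOPBP1 and CHEK1 the 7-mer is followed by an A, a feature examined after the values were seen. The 8-mer GAATAAAA was found in 7 members (19.4%, against 11.1% of tested genes). These include the genes that prompted the search, and the middle value of the 7 is that of CHEK1, so their median of -0.48 with siLINC01534-1 is a description of those genes. The 29 members without it had a median of -0.20 with siLINC01534-1. Over all tested genes the medians with siLINC01534-1 were -0.21 with the 8-mer and 0.01 without it. With siLINC01534-2 they were 0.02 and 0.00. Tested genes with the 8-mer had longer 3′ UTRs, with a median of 2786.5 against 1193 bases.

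Members with and without the 7-mer did not sort cleanly. BARD1, BRCA2, RAD54L, FANCE, FANCI, DNA2, BLM, TOPBP1 and CHEK1 have a match and fell with siLINC01534-1. BRCA1, XRCC3, RAD54B, FANCA, FANCG, EXO1, CHEK2, MSH6 and PMS2 have no match in this 3′ UTR and also fell with siLINC01534-1. MRE11A has 2 matches and ATM 1, and both rose with it. FANCF has 5 matches and stood at 0.07. The part of the seed in any of these values was not tested.

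BRCA1 and BARD1, which form a ubiquitin ligase that promotes resection and recombinase loading, fell with siLINC01534-1. BRCA1 was at 12.1 and 11.2 FPKM in parent cells, 7.01 and 7.50 FPKM with siLINC01534-1, and 10.5 and 9.80 FPKM with siLINC01534-2. All 4 siRNA libraries lay below both parent libraries, the siLINC01534-1 pair lowest. Its log2 fold change was -0.62 ± 0.07 (SE, adjusted p = 0.00132) with siLINC01534-1 and -0.18 (adjusted p = 0.106) with siLINC01534-2, and the difference of -0.43 between the siRNAs passed the test (adjusted p = 0.00517). BARD1 was at 6.01 and 4.67 FPKM in parent cells, 3.22 and 3.63 FPKM with siLINC01534-1, and 4.45 and 4.61 FPKM with siLINC01534-2. The parent libraries of BARD1 were far apart, and the siLINC01534-2 pair lay just under the lower of them. Its change was -0.51 (adjusted p = 0.0179) with siLINC01534-1 and -0.19 (adjusted p = 0.302) with siLINC01534-2, and the siLINC01534-1 call was lost without parent replicate 1 or either siLINC01534-1 library. BRCA2, which loads the recombinase, fell with siLINC01534-1 (log2 fold change -0.29, adjusted p = 0.0345) and stood at 0.11 with siLINC01534-2 (adjusted p = 0.377), the first call being lost without either parent or either siLINC01534-1 library. PALB2, the bridge between BRCA1 and BRCA2, stood at 0.14 and 0.02 and passed no test.

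Among the 4 recombinase paralogs and the 3 partner proteins, RAD54L fell most with siLINC01534-1, and XRCC2 fell most with siLINC01534-2. RAD54L, a translocase that remodels the recombinase filament, was at 19.6 and 20.3 FPKM in parent cells, 13.2 and 12.8 FPKM with siLINC01534-1, and 16.0 and 16.4 FPKM with siLINC01534-2. Its 3 groups did not overlap, and siLINC01534-2 lay between the other two. The log2 fold change was -0.58 ± 0.05 (SE, adjusted p = 0.000453) with siLINC01534-1 and -0.29 ± 0.05 (adjusted p = 0.0123) with siLINC01534-2, the latter call being lost without either parent or either siLINC01534-2 library. Its relative RAD54B fell with siLINC01534-1 (-0.23, adjusted p = 0.0301), a call lost without any library but parent replicate 1.

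XRCC2 and XRCC3, both recombinase paralogs, differed between the siRNAs in opposite directions. XRCC2 was at 9.56 and 11.8 FPKM in parent cells, 10.6 and 11.2 FPKM with siLINC01534-1, and 7.93 and 7.31 FPKM with siLINC01534-2. Only its siLINC01534-2 pair lay below both parent libraries (log2 fold change -0.43, adjusted p = 0.0363), and the difference between the siRNAs was 0.47 (adjusted p = 0.0173). XRCC3 was at 18.9 and 20.2 FPKM in parent cells, 16.4 and 13.6 FPKM with siLINC01534-1, and 20.7 and 20.6 FPKM with siLINC01534-2. Here only the siLINC01534-1 pair lay below the parent libraries (-0.37, adjusted p = 0.0206), and the difference was -0.44 (adjusted p = 0.0129). Leaving out any 1 of the 4 siRNA libraries ended both XRCC2 calls, and parent replicate 2 decided its siLINC01534-2 call too. Leaving out either siLINC01534-2 library ended the difference for XRCC3, and its siLINC01534-1 call was lost without either parent library or siLINC01534-1 replicate 2. RAD51C, RAD51D and RAD51AP1, a stimulator of strand invasion, passed no test, with log2 fold changes from -0.29 to -0.08.

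**Figure D3:**
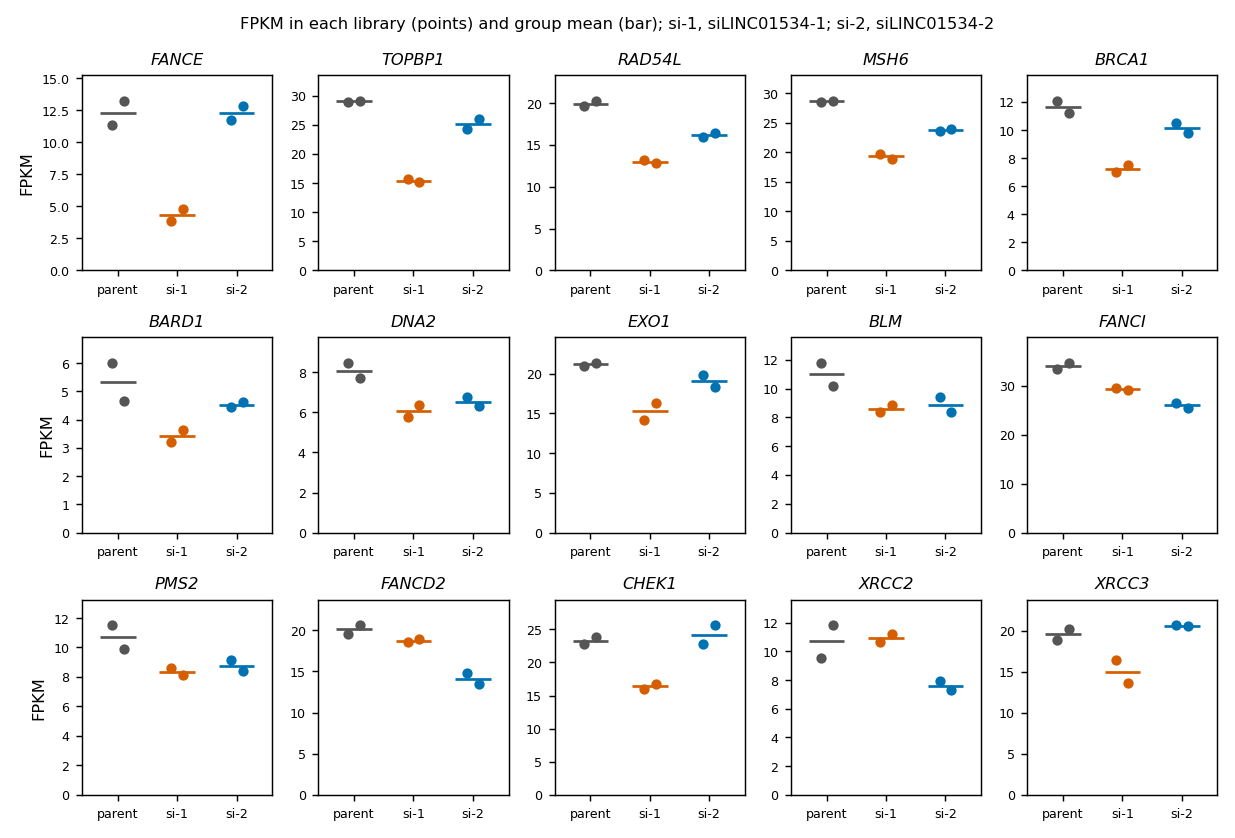
FPKM in each library (points) with the group mean (bar) for 15 of the genes described library by library, each panel starting at 0. FANCE drops with siLINC01534-1 alone, TOPBP1, RAD54L and MSH6 form 3 separate levels, and FANCD2 and XRCC2 are lowest with siLINC01534-2.

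In the Fanconi core complex, which carries the ubiquitin ligase activity of the pathway, the largest single change of the set was found. FANCE, the subunit that binds FANCD2 and a gene whose 3′ UTR holds the siLINC01534-1 7-mer shown, was at 11.4 and 13.3 FPKM in parent cells, 3.83 and 4.81 FPKM with siLINC01534-1, and 11.8 and 12.9 FPKM with siLINC01534-2. The siLINC01534-1 pair lay far below every other library, and the siLINC01534-2 pair lay between the parent libraries. The means were 12.3 ± 1.34, 4.32 ± 0.698 and 12.3 ± 0.780 FPKM (SD, n = 2 each), a ratio to parent of 0.351 with siLINC01534-1. The log2 fold change was -1.33 (95% interval -1.62 to -1.03, adjusted p = 0.000692) with siLINC01534-1 and 0.00 (-0.29 to 0.30, adjusted p = 0.991) with siLINC01534-2. The difference between the siRNAs was -1.33 (adjusted p = 0.000906), and it passed the test with any 1 library left out.

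Changes in the other core subunits were smaller. FANCG fell by nearly the same amount with each siRNA, -0.25 (adjusted p = 0.00880) with siLINC01534-1 and -0.25 (adjusted p = 0.0183) with siLINC01534-2, and the difference between them was 0.01 (95% interval -0.11 to 0.12). The first call was lost without parent replicate 2, and the second without either parent or either siLINC01534-2 library. FANCA fell with siLINC01534-1 (-0.25, adjusted p = 0.00503) and stood at -0.14 with siLINC01534-2 (adjusted p = 0.0620). FANCL, the catalytic subunit, FANCM, the translocase that anchors the complex to DNA, and FANCF passed no test, with log2 fold changes from -0.08 to 0.15. FANCB and FANCC passed no test against parent cells, while FANCB was lower (-0.32, adjusted p = 0.0436) and FANCC higher (0.25, adjusted p = 0.0279) with siLINC01534-1 than with siLINC01534-2, and both differences were lost without siLINC01534-1 replicate 1, siLINC01534-1 replicate 2 or siLINC01534-2 replicate 2. That of FANCB was also lost without either parent library, and that of FANCC without siLINC01534-2 replicate 1.

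FANCD2 and FANCI, the pair that the core complex modifies, were lower with siLINC01534-2 than with siLINC01534-1. FANCD2 was at 19.6 and 20.6 FPKM in parent cells, 18.6 and 18.9 FPKM with siLINC01534-1, and 14.8 and 13.5 FPKM with siLINC01534-2. All 4 siRNA libraries were below the parent pair, with a clear further gap down to siLINC01534-2. Its log2 fold change was -0.09 (adjusted p = 0.238) with siLINC01534-1 and -0.48 (adjusted p = 0.00606) with siLINC01534-2, and the difference was 0.39 (adjusted p = 0.00512). The siLINC01534-2 call was lost without parent replicate 2, and the difference stood with any 1 library left out. FANCI was at 33.4 and 34.7 FPKM in parent cells, 29.5 and 29.1 FPKM with siLINC01534-1, and 26.5 and 25.4 FPKM with siLINC01534-2. It gave 3 separate levels, with changes of -0.21 (adjusted p = 0.0109) and -0.38 (adjusted p = 0.00466), of which the siLINC01534-1 call was lost without parent replicate 2 or siLINC01534-1 replicate 2. The difference between the siRNAs, 0.17 (adjusted p = 0.0255), was lost without any 1 of the 4 siRNA libraries. BRIP1, a helicase that binds BRCA1, stood at -0.20 and -0.17 and passed no test (adjusted p = 0.0522 and 0.118).

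In break sensing and end resection, no gene of the sensor complex passed the test as lower. MRE11A, its nuclease, rose with siLINC01534-1 (log2 fold change 0.36, adjusted p = 0.0101) and stood at 0.12 with siLINC01534-2 (adjusted p = 0.295), the rise being lost without parent replicate 2 or siLINC01534-1 replicate 1. It was at 5.64 and 5.24 FPKM in parent cells, 7.64 and 6.94 FPKM with siLINC01534-1, and 6.03 and 5.90 FPKM with siLINC01534-2, so that every siRNA library was above both parent libraries. Its partners RAD50 and NBN, and RBBP8, the cofactor that starts resection, passed no test, with changes from -0.14 to 0.03.

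The long-range resection genes EXO1, DNA2 and BLM fell with siLINC01534-1, and none of them passed with siLINC01534-2. EXO1, an exonuclease that also serves mismatch repair, was at 21.0 and 21.3 FPKM in parent cells, 14.2 and 16.3 FPKM with siLINC01534-1, and 19.8 and 18.3 FPKM with siLINC01534-2. The 3 groups did not overlap, and the change was -0.45 (adjusted p = 0.00619) with siLINC01534-1, and -0.15 (adjusted p = 0.226) with siLINC01534-2. Its difference of -0.30 between the siRNAs (adjusted p = 0.0263) was lost without any library but siLINC01534-1 replicate 2. DNA2, a nuclease and helicase, was at 8.47 and 7.71 FPKM in parent cells, 5.75 and 6.37 FPKM with siLINC01534-1, and 6.77 and 6.31 FPKM with siLINC01534-2. BLM, the helicase that works with DNA2, was at 11.8 and 10.2 FPKM in parent cells, 8.38 and 8.83 FPKM with siLINC01534-1, and 9.41 and 8.36 FPKM with siLINC01534-2. For DNA2 and BLM the 2 siRNAs overlapped one another below the parent libraries. DNA2 changed by -0.36 (adjusted p = 0.0142) and -0.27 (adjusted p = 0.0631), and BLM by -0.32 (adjusted p = 0.0341) and -0.28 (adjusted p = 0.0807), with siLINC01534-1 and siLINC01534-2 in that order. Both siLINC01534-1 calls were lost without parent replicate 1 and without siLINC01534-1 replicate 1, and that of BLM also without siLINC01534-1 replicate 2.

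Of the checkpoint genes, TOPBP1, which activates the ATR kinase at stalled forks, changed most. Its E2F word and its 7-mer site are among the sequences shown. TOPBP1 was at 29.0 and 29.1 FPKM in parent cells, 15.7 and 15.1 FPKM with siLINC01534-1, and 24.3 and 26.0 FPKM with siLINC01534-2. The means were 29.1 ± 0.0880, 15.4 ± 0.427 and 25.2 ± 1.21 FPKM (SD, n = 2 each), so that siLINC01534-1 left 0.531 of the parent level and siLINC01534-2 left 0.866. The log2 fold change was -0.87 (adjusted p = 0.000177) with siLINC01534-1 and -0.20 (adjusted p = 0.0397) with siLINC01534-2, and the latter call was lost when any 1 library was left out. The difference of -0.67 between the siRNAs (adjusted p = 0.000506) stood with any 1 library left out.

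CHEK1, the effector kinase of ATR, behaved like FANCE in its order. It was at 22.7 and 23.8 FPKM in parent cells, 16.0 and 16.8 FPKM with siLINC01534-1, and 22.8 and 25.6 FPKM with siLINC01534-2. The siLINC01534-1 pair lay below all others (-0.48, adjusted p = 0.00322), the siLINC01534-2 pair overlapped the parent pair (0.05, adjusted p = 0.608), and the difference was -0.53 (adjusted p = 0.00277). CHEK2, the effector kinase of ATM, fell with siLINC01534-1 (-0.41, adjusted p = 0.0155) and stood at -0.16 with siLINC01534-2 (adjusted p = 0.251), the first call being lost without parent replicate 1 or either siLINC01534-1 library. Neither apical kinase passed the test as lower than in parent cells. ATM rose with siLINC01534-1 (0.30, adjusted p = 0.0309) and stood at -0.08 with siLINC01534-2 (adjusted p = 0.537), and ATR stood at 0.09 and -0.18 (adjusted p = 0.261 and 0.0888). The rise of ATM was lost when any library other than parent replicate 1 was left out.

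Both mismatch repair members of the set were lower in all 4 siRNA libraries. MSH6, which recognises mismatches, was at 28.5 and 28.7 FPKM in parent cells, 19.7 and 18.9 FPKM with siLINC01534-1, and 23.5 and 23.9 FPKM with siLINC01534-2. The means of 28.6 ± 0.123, 19.3 ± 0.602 and 23.7 ± 0.260 FPKM (SD, n = 2 each) were 3 separate levels. MSH6 fell by 0.55 on the log2 scale (adjusted p = 0.000416) with siLINC01534-1 and by 0.26 (adjusted p = 0.0123) with siLINC01534-2, and the difference was -0.28 (adjusted p = 0.00440). PMS2, the endonuclease partner in strand removal, was at 11.5 and 9.89 FPKM in parent cells, 8.60 and 8.12 FPKM with siLINC01534-1, and 9.17 and 8.37 FPKM with siLINC01534-2. Its 2 siRNA pairs overlapped, with changes of -0.32 (adjusted p = 0.0304) and -0.26 (adjusted p = 0.0893). The siLINC01534-2 call of MSH6 was lost without either parent or either siLINC01534-2 library, and the siLINC01534-1 call of PMS2 without any library but parent replicate 2 and siLINC01534-2 replicate 2. PMS2, CHEK2, BRCA1 and FANCD2 have near-identical pseudogene copies elsewhere in the genome, and reads shared with them could be split either way, so their levels are less certain.

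The other genes of these pathways, taken from longer lists that hold none of the 36, are given here with siLINC01534-1 first and siLINC01534-2 second. With siLINC01534-1, 24.5% of all tested genes fell and 21.8% rose, and with siLINC01534-2 11.8% fell and 11.1% rose. Of 34 other homologous recombination genes tested, 7 (20.6%) and 7 (20.6%) fell while 7 (20.6%) and 0 rose, with medians of -0.11 and -0.07. Of 13 other Fanconi genes, 6 (46.2%) and 2 (15.4%) fell while 0 and 1 (7.69%) rose, with medians of -0.25 and -0.05. The recombination genes with siLINC01534-1 and the Fanconi genes with siLINC01534-2 were thus near the shares of all genes. Of 16 other mismatch repair genes, 9 (56.2%) and 6 (37.5%) fell while 2 (12.5%) and 2 (12.5%) rose, with medians of -0.20 and -0.18. Of 14 other checkpoint and break signalling genes, 6 (42.9%) and 3 (21.4%) fell while 2 (14.3%) and 0 rose, with medians of -0.12 and -0.16.

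Against parent cells, S phase and mitotic genes shifted in the same direction as the set. Of 24 S phase genes 20 (83.3%) fell with siLINC01534-1 and 17 (70.8%) with siLINC01534-2, with medians of -0.39 and -0.29. Of 22 mitotic genes 22 (100%) and 18 (81.8%) fell, with medians of -0.86 and -0.34. Of all tested genes 24.5% and 11.8% fell. Of 21 p53 target genes tested, 14 (66.7%) rose with siLINC01534-1 and 14 (66.7%) with siLINC01534-2, against 21.8% and 11.1% of all tested genes. Their medians were 0.54 and 0.38, and 1 (4.76%) fell with siLINC01534-1. The S phase median was thus farther from 0 than the -0.22 and -0.16 of the repair genes with each siRNA. In the direct comparison of the siRNAs these lists differed from the set. Lower with siLINC01534-1 were 15 S phase genes (62.5%) and 21 mitotic genes (95.5%), against 27.8% of the set and 22.3% of all tested genes. Higher were 1 (4.17%) and 0, against 19.4% of the set and 19.5% of all tested genes. The median differences were -0.19 for S phase, -0.50 for mitosis and -0.06 for the set. The part of cell cycle in the repair gene values was not tested, and in bulk RNA fewer cells in a phase and less RNA per cell cannot be told apart.

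**Figure D4:**
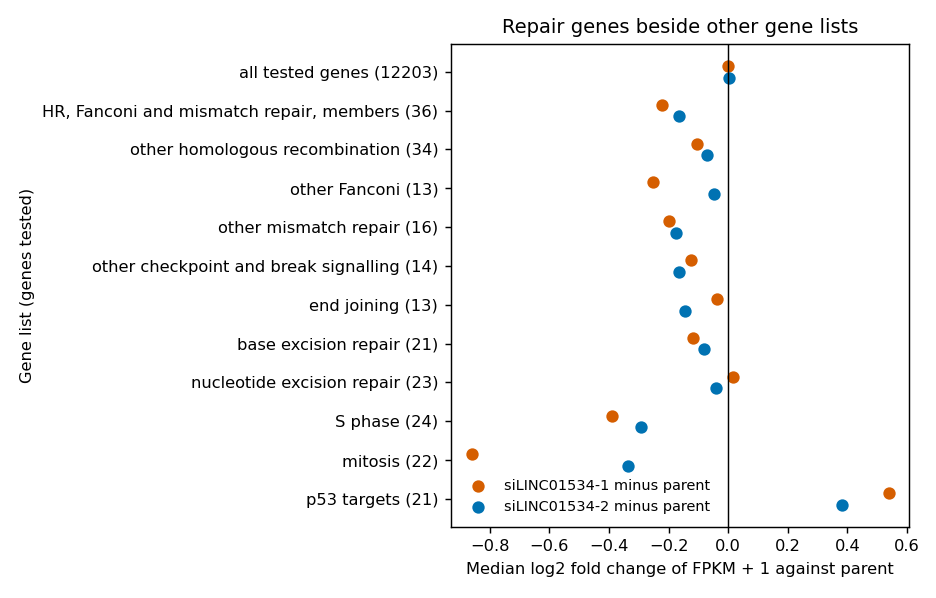
Median log2 fold change against parent cells of the 36 repair genes, of the other gene lists and of all tested genes, for siLINC01534-1 and siLINC01534-2. The S phase and mitosis lists lie lowest, at -0.39 and -0.86 with siLINC01534-1, the p53 targets lie highest at 0.54 and 0.38, and all tested genes lie at 0.00.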

How the data were processed

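Total RNA of HCT116 cells was made into stranded poly(A) libraries with a TruSeq kit. Per the submitters' processing notes the reads were handled with TopHat2 2.0.13, Bowtie2 2.2.3, SAMtools 0.1.19 and Cufflinks 2.2.1 on hg19. The authors deposited FPKM values per gene symbol for each of the 6 libraries, and no counts. Whether counting used strand is not given in the sources used here. The labels give 2 libraries per group.

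Members were matched by symbol. The 36 genes, the gene lists and the tests were chosen with earlier results of these data known. FPKM were turned into log2(FPKM + 1), genes with a mean of at least 1 FPKM over the 6 libraries were kept, and 3 group means with a shared spread were fitted with limma 3.58.1 (R 4.3.3, eBayes with trend, two-sided). p-values were adjusted by Benjamini-Hochberg over the 12203 genes tested, with 0.05 as threshold. Fold changes on this scale understate the change of low genes. All 36 members are named. Library values are given for the 12 members with the largest mean change, the 5 with the largest difference between the siRNAs, and for MSH6 and PMS2. Those of MRE11A were added after its values were seen. The pipeline was tested on simulated data. Other analyses used Python 3.11.15 with pandas 2.3.3 and numpy 2.4.6.

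Depth was estimated from the steps of low FPKM in 271 genes with 1 transcript. Of 4905 low genes, 57.1% were in whole steps within 5%, too few for a count test. Lists used were other homologous recombination, other Fanconi, other mismatch repair, other checkpoint, end joining, base excision, nucleotide excision, S phase, mitosis and p53 target genes. Promoters came from RefSeq (GRCh38.p14). Gene models and 3′ UTRs came from GENCODE on GRCh37, and the seed 7-mers were derived from the siRNA sequences in the study's methods. Alternatives were a pseudocount of 0.1, no filter, a mean of at least 5 FPKM, median ratio scaling, limma without a trend, only the groups compared, a replicate block, and leaving out each library in turn.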

Additional observations from a re-analysis of the deposited data

Results flagged for a closer look

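The difference between the 2 siRNAs was itself tested (limma, siLINC01534-1 minus siLINC01534-2 on the log2(FPKM + 1) scale), and 17 of the 36 repair genes (47.2%) passed at an adjusted p under 0.05, near the 41.8% of all tested genes that did. Lower with siLINC01534-1 were FANCE (-1.33), TOPBP1 (-0.67), CHEK1 (-0.53), XRCC3 (-0.44), BRCA1 (-0.43), BRCA2 (-0.40), FANCB (-0.32), EXO1 (-0.30), RAD54L (-0.29) and MSH6 (-0.28). Higher with siLINC01534-1 were XRCC2 (0.47), FANCD2 (0.39), ATM (0.38), ATR (0.27), FANCC (0.25), MRE11A (0.25) and FANCI (0.17). Of the 17, BRCA1, RAD54L, FANCE, FANCD2, TOPBP1, CHEK1 and MSH6 passed with any 1 library left out.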

How the results depend on the processing

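No called value of a member changed sign under any alternative. The filters, limma without a trend, the replicate block and only the groups compared leave each log2 fold change as it was. Under these a sign could not turn. With only the groups compared, the mean of both siRNAs gave 0 members lower and 0 higher, against 16 and 1, and called 0.819% of all tested genes lower and 2.14% higher. Without the filter 0 members rose for that mean. With siLINC01534-1, 1 member rose in place of 2 without the filter, at a mean of at least 5 FPKM, with only the groups compared and with the replicate block. The median for the mean of both siRNAs was -0.22 with a pseudocount of 0.1 and -0.23 at a mean of at least 5 FPKM. That of siLINC01534-1 was -0.24 with a pseudocount of 0.1, and that of siLINC01534-2 was -0.18 under both. With 1 library left out, the mean of both siRNAs gave 8 to 13 members lower, 0 to 1 higher and a median of -0.21 to -0.18. siLINC01534-1 gave 10 to 17 lower and 0 to 2 higher, with a median of -0.22 to -0.21. siLINC01534-2 gave 1 to 5 lower, with a median of -0.19 to -0.13. The difference between the siRNAs gave 6 to 9 lower, 1 to 7 higher and a median of -0.11 to -0.025. These fits have fewer libraries to estimate the spread, and the lone library of a group is assumed to vary like the others. Smaller shares of all tested genes were called in these fits too, so the lower counts are not particular to the members. Libraries of the same number did not deviate together in every pair (correlations of 0.11, 0.03 and -0.05). These correlations did not show a pairing by number, but they cannot exclude it. The replicate block ended 8 of 61 called member values. Precision is limited by 2 libraries per group and by the lack of deposited counts.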

Other observations

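Genes of the repair pathways outside the set gave the following counts with siLINC01534-1 and siLINC01534-2, each against the same parent libraries, where 24.5% and 11.8% of all tested genes fell and 21.8% and 11.1% rose. Of 13 end joining genes tested, 6 (46.2%) and 3 (23.1%) fell while 3 (23.1%) and 1 (7.69%) rose, with median log2 fold changes of -0.04 and -0.14. Of 21 base excision repair genes, 8 (38.1%) and 6 (28.6%) fell while 3 (14.3%) and 1 (4.76%) rose, with medians of -0.12 and -0.08. Of 23 nucleotide excision repair genes, 6 (26.1%) and 5 (21.7%) fell while 5 (21.7%) and 2 (8.70%) rose, with medians of 0.02 and -0.04, so that with siLINC01534-1 their shares were near those of all genes.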
